A study of Homo sapiens with 6 samples.

Results

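The genes described here are 10 genes that the transcription factor ATF4 drives, most of them in amino acid synthesis and transport. These are ASNS, PSAT1, PHGDH, SHMT2, MTHFD2, SLC7A11, SLC7A5, SLC3A2, CHAC1 and VLDLR. They were chosen by symbol, and all 10 were found among the 23368 genes of the count table. RNA was sequenced from 1205Lu, an established human metastatic melanoma line, in 6 libraries. In 3 libraries the cells had been transiently transfected with pCMV6-SOX10, a plasmid in which the cytomegalovirus promoter drives SOX10, and in 3 with the empty pCMV6 plasmid as control. All flasks received 7.8 µg of plasmid with FuGENE 6 and were lysed 24 h later, so every library comes from transfected cells and no untransfected cells were analysed here. The labels call the replicates biological but do not say whether they were separate cultures or days, so the p-values measure the spread between these samples.

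ATF4 is made when the kinases of the integrated stress response phosphorylate eIF2-alpha, for example when amino acids run short or unfolded protein collects in the endoplasmic reticulum. With partners of the C/EBP family it binds a composite element in its target promoters and raises genes that make amino acids, bring them into the cell and charge them onto tRNA. PPP1R15A, another target of the pathway, ends the response by directing the dephosphorylation of eIF2-alpha. ATF4 itself is controlled mainly at translation, so its mRNA level is only a partial measure of its activity.

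The promoters of 8 of the 10 genes are in the RefSeq promoter table of build GRCh38.p14, in 11 windows; SHMT2 and SLC7A11 are not. The composite element was searched as TGATGNAA on both strands in the 250 bases before each start. It occurred in 3.14% of all 35116 windows of this length, and in a window of 2 of the 8 genes, ASNS and CHAC1. These are shown because they hold the element by which ATF4 is known to act, with the matching 8 bases in capitals. The ASNS window is chr7:97872409-97872658 on the minus strand, with the match starting 68 bases before the start. The CHAC1 window is chr15:40953221-40953470 on the plus strand, with the match on the opposite strand from 209 bases before the start.
ASNS: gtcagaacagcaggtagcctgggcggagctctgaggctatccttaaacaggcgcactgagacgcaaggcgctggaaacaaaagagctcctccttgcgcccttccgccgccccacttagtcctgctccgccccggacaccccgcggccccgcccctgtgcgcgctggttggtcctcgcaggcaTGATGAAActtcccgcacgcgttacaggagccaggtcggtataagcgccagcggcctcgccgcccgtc
CHAC1: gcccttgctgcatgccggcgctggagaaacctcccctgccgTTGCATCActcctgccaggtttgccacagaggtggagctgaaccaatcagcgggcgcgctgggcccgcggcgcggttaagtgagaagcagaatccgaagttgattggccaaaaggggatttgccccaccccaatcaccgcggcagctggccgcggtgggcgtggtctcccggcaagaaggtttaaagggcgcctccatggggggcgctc
The table holds a second ASNS start with no match. A match is a string of letters and not a measured binding site, and gene counts do not tell which start was used.

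Assigned reads numbered 2544420 to 4167393 in the SOX10 libraries and 867917 to 2066520 in the controls, so every SOX10 library was deeper than every control library. A single read was worth 0.24 to 1.15 CPM (reads of a gene scaled to the library total), and intervals given below cover the spread between libraries. SOX10 replicate 1, at 93.5, and control replicate 3, at 97.0, had the fewest reads outside genes for each 100 assigned ones, while the remaining libraries had 121 to 135. SOX10 itself differed by 0.35 on the log2 scale (SE 0.27, adjusted p 0.927 by edgeR), from 81, 47 and 143 reads in SOX10 cells and 15, 18 and 44 in control cells, so its reads do not check the labels. The melanoma markers S100B and ERBB3 were abundant, while the pigment enzyme TYR and the pigment cell antigen MLANA were close to 0. Of 13 melanoma and melanocyte markers 8 had enough reads for a test, with summed levels of 1377 to 1544 CPM in the SOX10 libraries and 1368 to 1500 CPM in the controls. Of 12 keratinocyte and epithelial markers 3 were tested, of 12 leukocyte and endothelial markers 4 and of 8 fibroblast markers 3, and none passed. The summed levels of these 3 lists in SOX10 and control libraries were 121.8 to 139.8 against 118 to 119 CPM for keratinocyte and epithelial markers, where the groups did not overlap, 242 to 528 against 295 to 661 CPM for leukocyte and endothelial markers, and 114 to 184 against 132 to 166 CPM for fibroblast markers. CD68, a lysosomal protein that marks macrophages, had 192 to 621 CPM over the 6 libraries and PDGFRA of the fibroblast list 87.7 to 161 CPM, while the T cell marker CD3E was at 0 in all. The part of these levels in the results was not tested.

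None of the 10 genes passed the test between SOX10 and control cells. The edgeR quasi-likelihood test, with p-values adjusted over all 10678 tested genes and a threshold of 0.05, called 0 of the 10 higher and 0 lower. Over all tested genes it called 0.112%, with 0.00937% higher and 0.103% lower. At an unadjusted p under 0.05 it found 2 of the 10, ASNS and MTHFD2, both higher, against 6.23% of all tested genes, of which 2.71% higher and 3.52% lower. This count of 2 was 0 without SOX10 replicate 1 or control replicate 2, and 1 without SOX10 replicate 3 or control replicate 3. It was also 1 when replicate numbers were fitted as blocks, and 1 without SOX10 replicate 1 and control replicate 3 together. It stayed at 2 without SOX10 replicate 2, where SLC3A2, lower, replaced MTHFD2, and without control replicate 1, where SLC3A2 replaced ASNS. With reads outside genes as a covariate it was 3, as SLC3A2, lower, was added. DESeq2 and limma-voom also called 0 of the 10, and found 0 at an unadjusted p under 0.05. In 0 of the 10 did the groups lie apart without overlap, against 11.8% of all tested genes. The median log2 fold change of the 10 was -0.059, with 4 positive and 6 negative (with VLDLR negative by the fit, though not by its mean CPM), against a median of 0.0076 and 51.3% positive over all tested genes. The summed level of the 10 was 859, 797 and 744 CPM in SOX10 replicates 1, 2 and 3, within which the controls lay at 763, 783 and 826 CPM. All CPM of genes are scaled by TMM, edgeR's trimmed mean method.

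**Figure D1:**
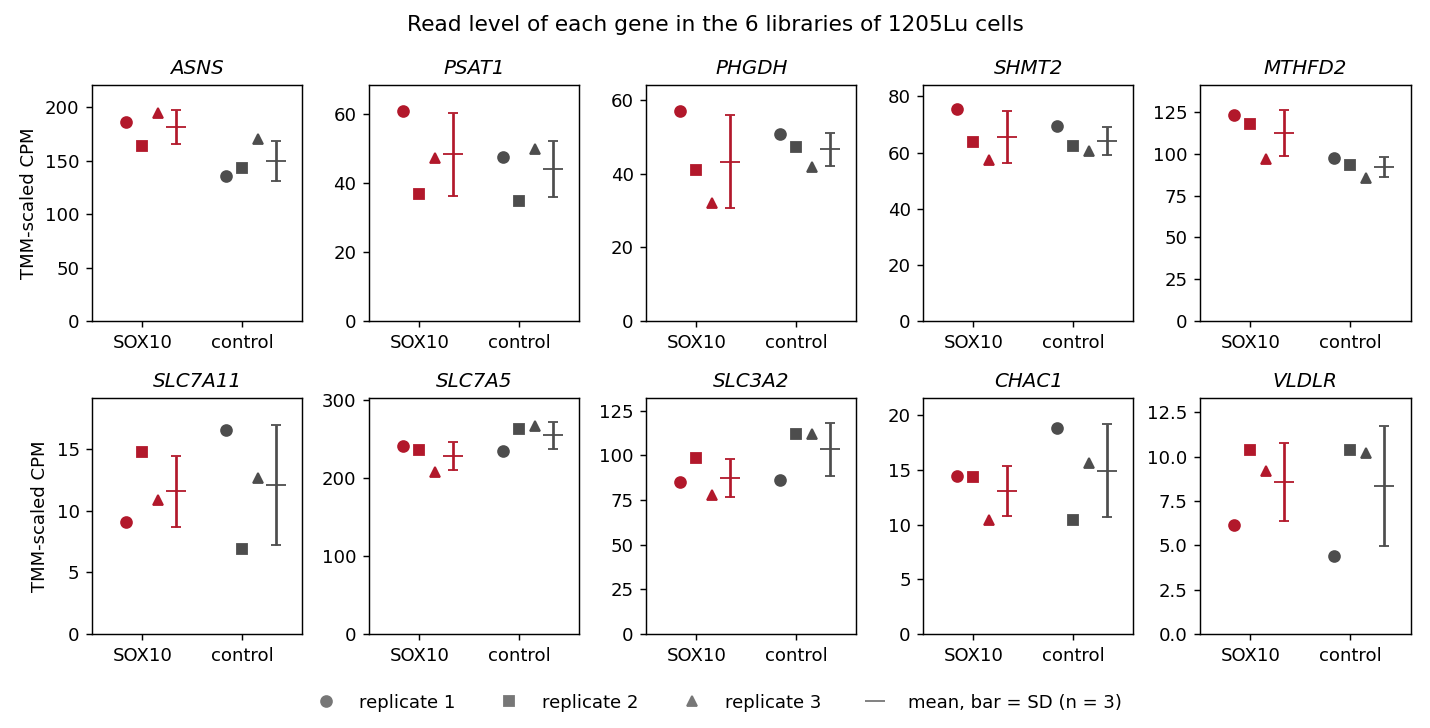
TMM-scaled CPM of each of the 10 genes (vertical axis from 0) in the SOX10 libraries and the control libraries (horizontal axis), 1 symbol per replicate number, with the mean and SD of 3 libraries at the right of each group. The groups overlap in every panel, by the smallest margin in MTHFD2, at 0.65 CPM.

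ASNS, which makes asparagine from aspartate and glutamine, had the highest level per kilobase of the longest transcript, though not per kilobase of all exons. It stood at 186, 164 and 195 CPM in SOX10 replicates 1 to 3, against 136, 143 and 171 CPM in control replicates 1 to 3. Only control replicate 3 lay above a SOX10 library, namely replicate 2. This was a difference of 0.26 on the log2 scale (SE 0.12), or 1.20-fold with a 95% interval from 1.01 to 1.43 that is not adjusted for the number of genes. Its adjusted p by edgeR was 0.777, with a log2 fold change from 0.20 to 0.39 when any single library was left out. In GENCODE release 29, 44.6% of the exonic bases of ASNS are shared with another annotated gene on the same strand, AC079781.5, which may have affected counting if the annotation used held it.

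MTHFD2, a mitochondrial enzyme of one-carbon metabolism, showed a difference of similar size. It had 123, 118 and 96.6 CPM in the SOX10 libraries, against 97.3, 93.4 and 85.8 CPM in the controls. The groups overlapped by a margin under 1 CPM, between SOX10 replicate 3 and control replicate 1. On the log2 scale the difference was 0.30 (SE 0.14), and its adjusted p by edgeR, 0.775, was the lowest of the 10 genes. It was 0.16 without SOX10 replicate 1 and control replicate 3, the libraries with the fewest reads outside genes. MTHFD2 shares 33.2% of its exonic bases with genes on the opposite strand in GENCODE release 29. One of these, SLC4A5, had 26 reads in all 6 libraries together, while MTHFD2 had between 81 and 459 reads in each.

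The 3 enzymes that make and split serine did not pass the test, and their levels varied among the SOX10 libraries. PHGDH, which starts serine synthesis from glycolysis, had 57.0, 41.1 and 32.0 CPM in the SOX10 libraries, against 50.9, 47.3 and 41.9 CPM in the controls. SOX10 replicate 1 was thus 1.78-fold above SOX10 replicate 3, and both extremes of the 6 libraries lay in the SOX10 group. Its log2 fold change of -0.09 (SE 0.21) was -0.35 without SOX10 replicate 1 and 0.11 without SOX10 replicate 3. PSAT1, the aminotransferase of the next step, had 60.8, 36.7 and 47.2 CPM, against 47.5, 34.6 and 49.7 CPM in the controls. Its SOX10 libraries spread over 1.66-fold and enclosed all controls but replicate 2. Its log2 fold change was 0.12 (SE 0.20), and -0.083 without SOX10 replicate 1. SHMT2, which splits serine into glycine and a one-carbon unit in mitochondria, had 75.5, 63.8 and 57.4 CPM, against 69.7, 62.3 and 60.5 CPM in the controls. The highest and the lowest library were again SOX10 replicates 1 and 3, with a log2 fold change of 0.04 (SE 0.16), or -0.077 without SOX10 replicate 1. By edgeR these 3 had adjusted p-values between 0.961 and 0.987.

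The transporters had negative log2 fold changes in 3 of 3 cases, none past the test, while 4 of the 6 enzymes, CHAC1 included, had positive ones. The difference between these sets was not tested, and 51.3% of all tested genes had positive values. The signs of SLC7A11, PSAT1, PHGDH and SHMT2 changed in some alternative fits. SLC3A2, the heavy chain that carries several amino acid transporters to the cell surface, had 85.2, 98.5 and 77.5 CPM in SOX10 cells, against 86.2, 112 and 112 CPM in the controls. Control replicate 1 lay among the SOX10 libraries, and the other controls lay above all of them. SLC3A2 differed by -0.27 on the log2 scale (SE 0.14), at an adjusted p of 0.853 by edgeR. SLC7A5, its partner in the leucine transporter LAT1, had 241, 236 and 208 CPM, against 235, 263 and 267 CPM in the controls. Again control replicate 1 overlapped with the SOX10 libraries. Its log2 fold change was -0.17 (SE 0.11), with the narrowest interval of the 10 genes, from 0.76-fold to 1.04-fold. The ratio of SLC7A5 to SLC3A2 reads per kilobase was 1.29 ± 0.11 in SOX10 cells and 1.22 ± 0.10 in control cells (SD, n = 3 each), and the groups overlapped in this ratio.

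SLC7A11, the cystine and glutamate exchanger of system xc-, was rare. Its reads numbered 34, 37 and 45 in SOX10 cells and 15, 6 and 26 in control cells, or 9.10, 14.8 and 10.9 CPM against 16.6, 6.92 and 12.7 CPM. Control replicates 1 and 2 were the highest and the lowest library, 2.40-fold apart. On the log2 scale the difference of -0.10 (SE 0.35) became 0.11 when control replicate 1 was left out and -0.31 without control replicate 2. SLC7A5 had 43.6 ± 11.5 times as many reads per kilobase as SLC7A11 in SOX10 cells and 51.9 ± 26.0 times as many in control cells (SD, n = 3 each).

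CHAC1, which degrades glutathione and is often read as a marker of ATF4 activity, was low in both groups. SOX10 libraries held 54, 36 and 43 reads of it and control libraries 17, 9 and 32, or 14.5, 14.4 and 10.4 CPM against 18.8, 10.4 and 15.6 CPM. Control replicate 1 was the highest library, and control replicate 2 and SOX10 replicate 3 were the lowest. CHAC1 differed by -0.22 on the log2 scale (SE 0.31), at an adjusted p of 0.946 by edgeR, and by -0.065 without SOX10 replicate 3 and -0.37 without control replicate 2. VLDLR, a receptor for lipoproteins and reelin and the only one of the 10 with no part in amino acid supply, had 23, 26 and 38 reads, against 4, 9 and 21 in the controls. This came to 6.16, 10.4 and 9.20 CPM in the SOX10 libraries and 4.42, 10.4 and 10.2 CPM in the controls, with replicate 1 the lowest library of each group. VLDLR differed by -0.03 on the log2 scale in the fit (SE 0.40), while its mean CPM was 1.03-fold higher in SOX10 cells, and the fit gave 0.40 without SOX10 replicate 1 and control replicate 3. Its 95% interval, from 0.55-fold to 1.74-fold, was the widest of the 10.

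**Figure D2:**
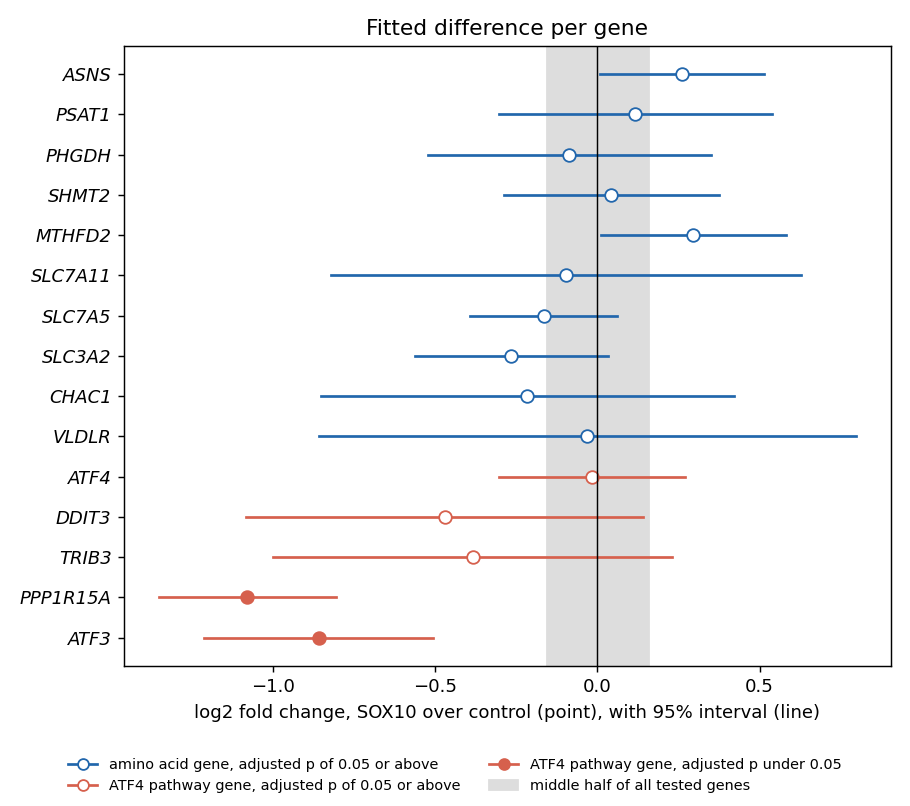
Fitted log2 fold change of SOX10 over control (horizontal axis) with its unadjusted 95% interval for the 10 genes and 5 genes of the ATF4 pathway (vertical axis), with the interquartile range of all tested genes in grey. Filled points passed at an adjusted p under 0.05, which was so for PPP1R15A and ATF3 and for 0 of the 10 genes.

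The intervals limit what could have gone unseen. A 2-fold change in either direction lay outside the 95% interval by edgeR of all 10 genes. A fall of 1.5-fold lay within the interval for 3 of them, SLC7A11, CHAC1 and VLDLR, and a rise of 1.5-fold for SLC7A11 and VLDLR, where control libraries had as few as 6 and 4 reads. DESeq2 gave larger standard errors, 0.42 for CHAC1 and 0.54 for VLDLR, wide enough for a 2-fold fall of either gene to lie within 95% limits. In 8 of the 10 genes the highest and the lowest library within each group stood further apart than the means of the groups, and in the other 2, ASNS and MTHFD2, this held in 1 of the groups.

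Among the SOX10 libraries, replicate 1 was the highest in 6 of the 10 genes and replicate 3 the lowest in 6, and both held in PHGDH, SHMT2, MTHFD2, SLC7A5 and CHAC1. The mRNA of ATF4 followed the same order, with 232, 183 and 150 CPM in SOX10 replicates 1, 2 and 3, against 181, 176 and 209 CPM in the controls. DDIT3 and TRIB3 did too. DDIT3, which encodes the stress factor CHOP, had 17.1, 15.2 and 9.21 CPM, against 21.0, 16.1 and 19.5 CPM in the controls. TRIB3, a pseudokinase that restrains ATF4, had 18.2, 12.0 and 11.9 CPM, against 12.2, 23.1 and 19.5 CPM in the controls. Between groups, ATF4 differed by -0.02 (SE 0.14), DDIT3 by -0.47 (SE 0.30) and TRIB3 by -0.38 (SE 0.30) on the log2 scale, and edgeR gave adjusted p-values of 0.998, 0.892 and 0.927. Without SOX10 replicate 3 DDIT3 differed by -0.23, and without SOX10 replicate 1 TRIB3 differed by -0.63. A single random thinning of all libraries to equal depth gave -1.14 for DDIT3 and -0.17 for TRIB3. The draw was not repeated, so how far these values vary between draws is not known. SOX10 replicate 1 was also the library with the fewest reads outside genes, and the part of that in its levels was not tested. Among the controls, replicate 1 was the highest in 5 of the 10 genes and the lowest in 4, and PHGDH, SHMT2 and MTHFD2 stood in the order of replicates 1, 2 and 3 there too.

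**Figure D3:**
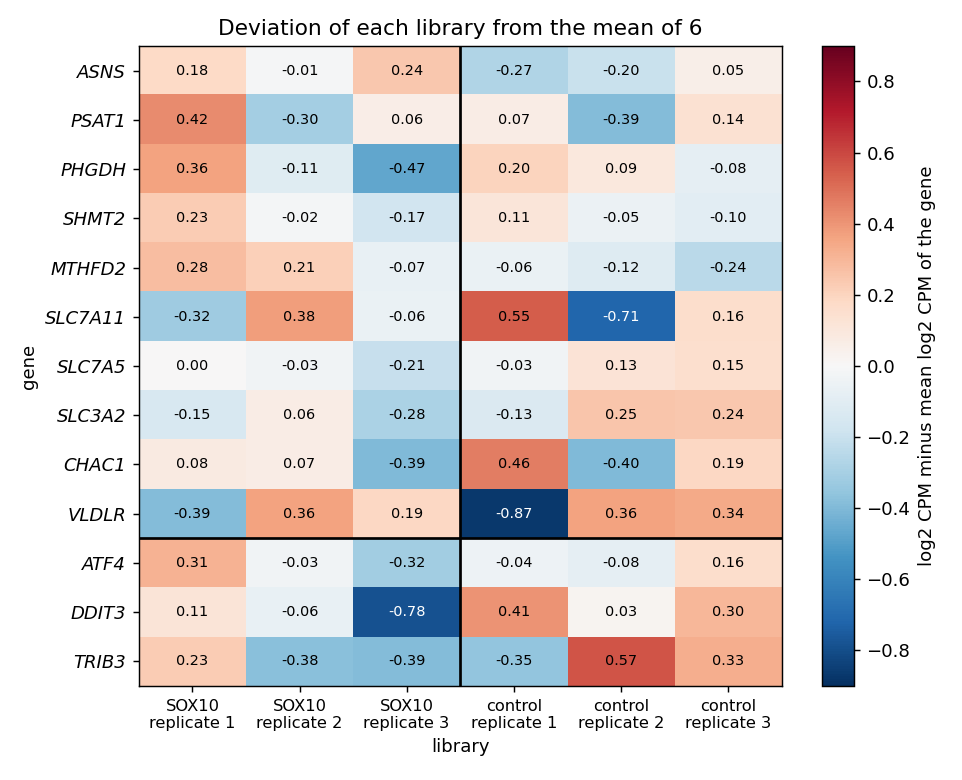
Deviation of log2 CPM from the mean of 6 libraries (colour and printed value) for the 10 genes and, below the line, ATF4, DDIT3 and TRIB3 (rows) in each library (columns, SOX10 left of control). ATF4 was at 0.31 in SOX10 replicate 1 and -0.32 in SOX10 replicate 3, and PHGDH at 0.36 and -0.47.

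Per kilobase of the longest annotated transcript, levels of the 10 genes differed far more between genes than between groups. ASNS had 77.1 ± 6.86 CPM per kilobase in SOX10 cells and 63.6 ± 7.78 in control cells (SD, n = 3 each). SLC7A5 followed with 50.3 ± 3.87 in SOX10 cells and 56.3 ± 3.79 in control cells, and SLC3A2 with 39.2 ± 4.79 in SOX10 cells and 46.5 ± 6.63 in control cells. In the controls ASNS and SLC7A5 overlapped, while in the SOX10 libraries they did not. MTHFD2, PSAT1 and SHMT2 overlapped with each other in the controls, at means of 20.7, 20.1 and 18.8 CPM per kilobase, and PHGDH, at 14.7, overlapped with PSAT1. CHAC1 had 8.07 ± 2.30 in control cells, and SLC7A11 and VLDLR were near 1, with 1.25 ± 0.50 and 0.91 ± 0.37, and overlapped. This order depends on the length taken. Over all annotated exons of a gene, ASNS and SLC3A2 in control cells came to 33.6 and 19.9 CPM per kilobase, below the 53.8 of SLC7A5.

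Other enzymes of the serine and one-carbon pathway did not pass the test either. Beyond PHGDH, PSAT1, SHMT2 and MTHFD2 the list held 12 genes, of which 9 were tested, with 0 called higher and 0 lower. At an unadjusted p under 0.05, 0 were higher and 1 lower, beside 2.71% and 3.52% of all tested genes. The median log2 fold change of the 9 was -0.013. PSPH, which completes serine synthesis, had 168, 160 and 171 CPM in the SOX10 libraries, against 142, 128 and 154 CPM in the controls. Its groups did not overlap, yet the difference of 0.23 on the log2 scale (SE 0.12) did not pass, at an adjusted p of 0.836 by edgeR. MTHFD1L, a mitochondrial formate enzyme, had 69.1, 68.6 and 63.2 CPM, against 82.9, 70.4 and 91.7 CPM in the controls. It differed by -0.31 on the log2 scale (SE 0.15), at an adjusted p of 0.787 by edgeR. Groups without overlap were found in 2 upward and 2 downward cases of the 9, PSPH and GCSH against MTHFD1L and ALDH1L2, beside 5.72% and 6.03% of all tested genes. PSPH and MTHFD1L were named for having the smallest p of the list in these data, as were 2 genes of each list below. GCSH and ALDH1L2 were also named after their values were seen.

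Enzymes for other amino acids, ASNS left out, did not pass either. Of 15 genes 12 were tested, 0 passed in either direction, and the median was 0.050. At an unadjusted p under 0.05, 1 was higher, beside 2.71% of all tested genes. The groups lay apart without overlap in 0 of the 12, beside 11.8% of all tested genes. BCAT1, the cytosolic branched-chain aminotransferase, averaged 34.7 ± 8.71 CPM in SOX10 cells and 24.7 ± 5.23 CPM in control cells (SD, n = 3 each). The difference was 0.49 on the log2 scale (SE 0.24), and its adjusted p by edgeR 0.801.

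Of 29 other amino acid transporter genes 16 were tested and 0 passed, with 9 negative log2 fold changes and a median of -0.074. With the 3 transporters above, their summed level was 1062 to 1098 CPM in the SOX10 libraries and 1103 to 1229 CPM in the controls. The groups did not overlap in this sum, but they did in the sum without these 3 genes. SLC38A2, a glutamine and alanine carrier induced by amino acid shortage, had 38.0, 47.5 and 37.1 CPM in the SOX10 libraries, against 48.6, 63.4 and 51.2 CPM in the controls. The groups did not overlap, and the difference of -0.41 on the log2 scale (SE 0.18) had 0.763 as its adjusted p by edgeR. SLC38A2 was the only gene of the list with an unadjusted p under 0.05, and the only 1 of the 16 without overlap. Over all tested genes, 11.8% had groups without overlap, with 6.03% lying below the controls. SLC36A1, a lysosomal amino acid carrier, had a log2 fold change of -0.37 (SE 0.20). All 20 cytosolic aminoacyl-tRNA synthetases were tested, with 0 called, 0 at an unadjusted p under 0.05, a median of -0.025 and a range from -0.19 for CARS to 0.26 for FARSB, the cysteine and phenylalanine enzymes. FARSB differed by 0.025 without SOX10 replicate 1 and by 0.58 after thinning, a single random draw. In the summed level of these synthetases the groups overlapped, at 3811 to 4975 CPM in the SOX10 libraries and 3841 to 4827 CPM in the controls. Taken singly, 0 of the 20 had groups without overlap. Over all tested genes 11.8% did, and 6.23% had an unadjusted p under 0.05.

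Genes of cysteine and glutathione metabolism, CHAC1 left out, had the highest list median, 0.23, with 8 of 11 tested and 0 called. At an unadjusted p under 0.05 there were 2, both higher, beside 2.71% of all tested genes higher and 3.52% lower. GSR, which reduces oxidised glutathione, had 26.8, 33.9 and 32.9 CPM in the SOX10 libraries, against 17.7, 21.9 and 22.9 CPM in the controls, and GGCT, of the gamma-glutamyl cycle, averaged 46.0 ± 8.89 CPM against 33.6 ± 2.88 CPM (SD, n = 3 each). GSR differed by 0.55 (SE 0.23) and GGCT by 0.48 (SE 0.20) on the log2 scale, at adjusted p-values of 0.694 and 0.725 by edgeR. GSR, GGCT and GPX4 lay above all controls in all SOX10 libraries, or 3 of 8, beside 5.72% of all tested genes. GSR and GGCT had been named for their small p in these data, and GPX4 after its values were seen. The summed level of the list with CHAC1 was 343 to 370 CPM in the SOX10 libraries and 302 to 311 CPM in the controls. Of 13 targets of NRF2 other than SLC7A11, which it also drives, all were tested, 0 passed, 0 had an unadjusted p under 0.05, and the median was 0.0023. PGD of the pentose phosphate pathway and GCLC of glutathione synthesis had log2 fold changes of 0.22 (SE 0.11) and 0.24 (SE 0.16). PGD lay above all controls in all SOX10 libraries, the only 1 of the 13 without overlap, beside 5.72% of all tested genes above.

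The called genes among all these lists were PPP1R15A and ATF3, in the list of ATF4 and the eIF2-alpha pathway. Of 21 genes 20 were tested, 0 were higher and 2 lower, beside 0.00937% and 0.103% of all tested genes. At an unadjusted p under 0.05, 3 were lower, beside 3.52% of all tested genes, and the list median was -0.12. The summed level of the list was 2021 to 2209 CPM in the SOX10 libraries and 2242 to 2394 CPM in the controls, without overlap. This sum includes PPP1R15A and ATF3, and without these 2 genes the groups overlapped in it. PPP1R15A had 77.7, 93.7 and 76.8 CPM in the SOX10 libraries, against 193, 180 and 154 CPM in the controls. It fell by 1.08 on the log2 scale (SE 0.13), at an adjusted p of 0.000103 by edgeR. ATF3, a stress-induced repressor, had 45.0, 51.1 and 39.5 CPM, against 99.5, 80.7 and 68.8 CPM in the controls. It fell by 0.86 (SE 0.17), at an adjusted p of 0.0417 by edgeR. ATF3 kept its call without control replicate 3, and its adjusted p by edgeR ran from 0.0602 to 0.469 without any other single library. DDIT4 and SESN2, inhibitors of mTORC1 signalling named after their values were seen, also lay below all controls in all SOX10 libraries. With PPP1R15A and ATF3, 4 of the 20 did, beside 6.03% of all tested genes. The list holds the called genes and was chosen with earlier results of these data known, so these shares are not independent counts. DDIT4 differed by -0.71 (SE 0.23) and SESN2 by -0.40 (SE 0.20) on the log2 scale, at adjusted p-values of 0.472 and 0.817 by edgeR.

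**Figure D4:**
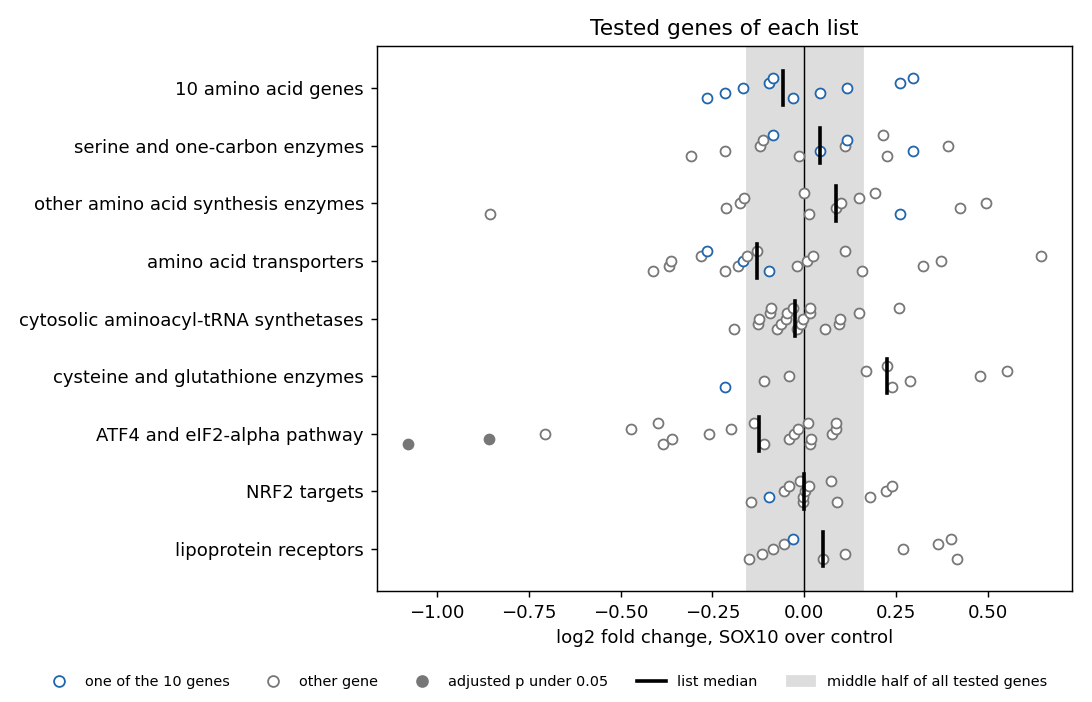
Log2 fold change of SOX10 over control (horizontal axis) of every tested gene in each list (rows), with the list median as a bar and the interquartile range of all tested genes in grey. The filled points, PPP1R15A at -1.08 and ATF3 at -0.86, are the called genes, and list medians, members included, run from -0.13 for transporters to 0.23 for glutathione genes.

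VLDLR was set beside 10 related receptors of lipoproteins and their ligands, of which all were tested and 0 passed, with a median of 0.081. LRP11 and LRP12, receptors of this family, had log2 fold changes of 0.42 (SE 0.19) and 0.37 (SE 0.18) with adjusted p-values by edgeR of 0.766 and 0.809, and lay above all controls in all SOX10 libraries, or 2 of 10, beside 5.72% of all tested genes.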

How the data were processed

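The 10 genes and all gene lists were chosen with earlier results of these data known. The authors deposited raw read counts of 23368 gene symbols in 6 libraries, each made from 125 ng of total RNA. TopHat 1.4.0, HTSeq and DESeq, with build hg19, are named in the submitters' processing notes. The sources used here do not give the annotation or how the counting treated strand and overlapping genes. The last 5 rows name no gene, hold 57.9% to 65.3% of all records, and were left out. Pairs of libraries within a group differed beyond sampling noise (chi-square of 2.11 to 7.03 per degree of freedom).

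Counts were tested with edgeR 4.0.16 in R 4.3.3 (quasi-likelihood test, TMM scaling, filterByExpr with minimum count 10 and minimum total 15, no covariate), adjusted by Benjamini and Hochberg over 10678 genes. The filter kept all 10 genes. Log2 fold changes use edgeR's prior count of 0.125, and standard errors come from the F statistic. The script was tested on simulated data. Named genes are the 10, the 2 further genes with the smallest p of each pathway list, any called gene beyond these, and ATF4, DDIT3 and TRIB3. In the list of ATF4 and the eIF2-alpha pathway these 2 were the called genes. DESeq2 1.42.0, limma-voom (limma 3.58.1), other scalings and filters, a replicate block, and fits without single libraries were alternatives. Leaving out 2 libraries together, a covariate for reads outside genes and thinning were chosen after seeing the data. Thinning was a single random draw of reads from each library, down to the smallest library total. Transcript lengths and exon overlaps come from GENCODE release 29, and promoters from RefSeq. Both are of another build than the counts, so coordinates are given for promoters only.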

Additional observations from a re-analysis of the deposited data

How the results depend on the processing

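None of the 10 genes was called under any alternative run, planned or added, and their lowest adjusted p in any was 0.544, for ASNS with reads outside genes as a covariate. Thinning to equal depth left 8 of the 10 tested. Over all genes, 1 was higher and 11 lower. The number higher was 2 with library totals, 13 with no low-count filter, 3 with the CPM filter, 11 with the covariate and 2 after thinning, and the number lower was 35 with no low-count filter, 7 by limma-voom, 41 with the covariate and 6 without SOX10 replicate 1 and control replicate 3. Without single libraries these ran from 1 to 4 and from 5 to 16. Other called genes of the pathway lists numbered 2, but 1 by limma-voom, 1 without SOX10 replicate 1 and control replicate 3, and 1 to 2 without single libraries, since ATF3 lost its call, while PPP1R15A was called in all. The labels do not say whether the replicate numbers pair the samples. Deviations of same-numbered libraries correlated at -0.030, -0.033 and -0.14 over genes, and no library correlated best with its own number. With 3 libraries per group these correlations cannot settle whether the samples were paired. With the replicate number as a block, 6 genes were lower, 1 pathway gene was called and the log2 fold change of VLDLR was 0.035. Changes of sign concerned genes whose values over all 6 libraries lay between -0.10 for SLC7A11 and 0.12 for PSAT1. Without single libraries, log2 fold changes ran from -0.083 to 0.27 for PSAT1, from -0.35 to 0.11 for PHGDH, from -0.077 to 0.14 for SHMT2, from -0.31 to 0.11 for SLC7A11, from -0.28 to 0.21 for VLDLR and from -0.20 to 0.13 for ATF4. Without SOX10 replicate 1 and control replicate 3 they were -0.13 for SHMT2, 0.091 for SLC7A11 and 0.40 for VLDLR, after thinning -0.084 for PSAT1, and with no low-count filter 0.015 for ATF4. The causes were not tested.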
